A study of Homo sapiens with 12 samples.

Results

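The genes described here are 39 mesenchymal matrix and contractile genes, taken as a list of gene names that was drawn up with earlier results of these data known, out of 20003 genes with a usable symbol in the expression table. They fall into secreted matrix proteins (17 genes), enzymes that cross-link or hydroxylate collagen (6 genes), actin-binding and myosin proteins of the contractile apparatus (10 genes), and a last set of an intermediate filament, cadherins and surface proteins (6 genes). The study expressed ZNF263, a zinc-finger transcription factor, or a control vector in PC9, HCC827 and H1975, which are established human lung adenocarcinoma lines with mutated EGFR. There were 2 RNA-seq libraries for each line and vector, which makes 12 libraries in 6 groups. The labels give the same treatment for all 6 groups, stepwise osimertinib (an EGFR inhibitor), so the control-vector cells carry it too. They state neither the dose nor the time, and do not say whether a line is 1 clone or whether the libraries of a group came from separate cultures. The p-values therefore set a change against the spread of 2 libraries per group, and that spread may be technical.

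Mesenchymal cells secrete fibronectin, matricellular proteins and collagens, and tighten that matrix with lysyl oxidases and lysyl hydroxylases. They pull on it through actin filaments decorated with tropomyosins, calponins and transgelin, many of whose genes are read by serum response factor. Carcinoma cells can switch on parts of this set when they lose epithelial junctions, in the process called epithelial-mesenchymal transition, while the full fibroblast program also includes genes such as DCN, FAP and THY1.

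ZNF263 itself was higher in the cells given its vector in all 3 lines. The mean of the PC9 controls was 9.33 FPKM (fragments scaled by gene length and library size) and that of the PC9 libraries with the vector 39.1 FPKM (adjusted p = 2.83e-09, limma). HCC827 had 12.5 against 19.7 FPKM (adjusted p = 4.17e-05), and H1975 had 9.91 against 39.5 FPKM (adjusted p = 5.95e-11). The number of genes at 1 FPKM or more was alike in the 12 libraries, between 10672 and 10997.

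In H1975 most of the genes moved, and most of those went up; in PC9 and HCC827 fewer moved, by smaller amounts, and in HCC827 about as many fell as rose. FN1 (fibronectin) rose in every line. MATN2 (matrilin 2, a filament-forming adaptor protein of the matrix) was called higher in every line too, but its calls in PC9 and HCC827 were at low levels and depended on single libraries. Of the 39 genes, 30 reached 1 FPKM in at least 2 libraries and were tested, and CDH11 and LOXL4 did so only through the H1975 libraries with ZNF263. MGP also needed those libraries, since elsewhere it reached 1 FPKM only in H1975 control replicate 1 (1.16 FPKM). With limma over all genes and an adjusted p under 0.05, 7 of the 30 were higher and 2 lower in PC9, which is 9 of 30 called where 11.3% of all genes were called (7.21% higher and 4.12% lower). In HCC827, 6 were higher and 5 lower, or 36.7% against a background of 19.5% (13% higher and 6.44% lower). In H1975, 19 were higher and 7 lower, or 86.7% against 64.2%, and there the upward share was 63.3% against 32.1% of all genes and the downward share 23.3% against 32.1%. Only in H1975 were there changes of at least 1 on the log2(FPKM + 1) scale among the tested genes: 9 were higher by that much, where 3.93% of all genes were, and 4 were lower, where 4.71% were. In PC9 0.317% of all genes were higher and 0.0396% lower by that much, and in HCC827 0.155% and 0.0571%. Without CDH11 and LOXL4, whose filter favoured a rise in H1975, 17 of 28 were higher there, 8 of them by at least 1, and 7 lower. These counts still hold MGP, whose filter favoured a rise there too. This scale understates the change of genes near or below 1 FPKM. In a fit on the 4 libraries of a line alone, 4 of the 9 PC9 calls, 4 of the 11 HCC827 calls and all 26 H1975 calls were kept. The median-of-ratios scaling took the share of upward calls among all called HCC827 genes from 66.9% to 45.0%, and quantile normalization to 50.3%; the former left 4 of the genes described here higher and 6 lower in HCC827. Without ZNF263 replicate 2 there were 4 higher in PC9 and 3 higher in HCC827, without HCC827 ZNF263 replicate 1 there were 3 lower, and without PC9 control replicate 2 or ZNF263 replicate 1 there was 1 lower in PC9. The test for a change that differs between the 3 lines was passed by 26 of the 30 genes (86.7%), where 60.3% of all genes passed it. CDH11, LOXL4 and MGP are among the 26, and their filter favoured such a difference, so their passing adds nothing.

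**Figure D1:**
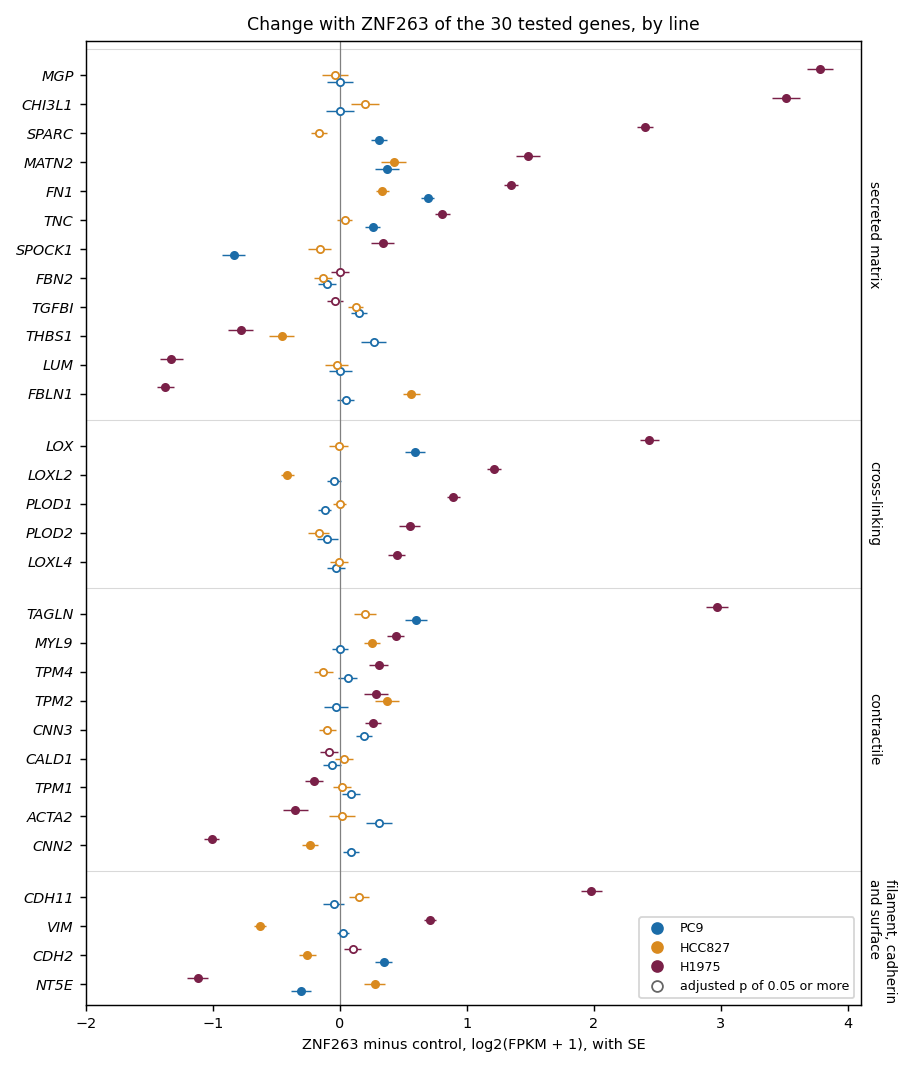
Each point is the difference between ZNF263 and control on the log2(FPKM + 1) scale (x axis) with its standard error, for the 30 tested genes (y axis, grouped by role) in PC9, HCC827 and H1975, and open points have an adjusted p of 0.05 or more. The H1975 points spread from -1.38 (FBLN1) to 3.78 (MGP), while no called point in PC9 or HCC827 lies beyond 1 in either direction.

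The other 9 of the 39 genes did not reach the level needed for testing. LOXL1 was highest among them at 0.654 FPKM, followed by FBN1 (fibrillin 1) at 0.526, CNN1 at 0.158 and BGN (biglycan) at 0.145 FPKM, each in its highest library. THBS2, POSTN (periostin), FAP, DCN (decorin) and THY1 stayed at or under 0.094 FPKM in every library with a value, and THY1 had no value in HCC827. Decorin, periostin, FAP and THY1, which commonly mark fibroblasts, were therefore at or near 0 wherever they had a value, also in H1975 with ZNF263. Other fibroblast markers did move there: of 13 such markers 7 were tested, and in H1975 4 were higher and 2 lower. Of all genes 32.1% were higher and 32.1% lower there. PDGFRB, among the 4, was tested only because of its level in the H1975 libraries with ZNF263.

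Among the secreted matrix genes, 12 of 17 were tested. In H1975, 7 were higher and 3 lower (83.3% called, where 64.2% of all genes were), with a median log2 difference of 0.57, where the median over all genes was 0.0025. MGP, among the 7, would not have been tested without the H1975 libraries with ZNF263. In PC9, 4 were higher and 1 lower (median 0.097), or 41.7% called where 11.3% of all genes were. In HCC827, 3 were higher and 1 lower (median 0.0042, with 0.045 over all genes), or 33.3% called where 19.5% were.

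FN1 carries the cell-binding sites through which integrins hold the matrix. In PC9 it stood at 127 and 122 FPKM in the control libraries and at 199 and 204 FPKM with ZNF263, a 1.62-fold rise (log2 difference 0.69 ± 0.0525 SE, adjusted p = 3.28e-06, limma). In HCC827, 318 and 335 FPKM became 428 and 395 FPKM, a 1.26-fold rise (0.33, adjusted p = 0.00103). In H1975, 124 and 121 FPKM became 312 and 315 FPKM, a 2.55-fold rise (1.35, adjusted p = 2.81e-10). The ZNF263 libraries lay above both controls in each line, and the rise in H1975 exceeded that in PC9 by 0.66 ± 0.074 (adjusted p = 1.06e-05) and that in HCC827 by 1.01 ± 0.074 (adjusted p = 2.18e-07). With the HCC827 libraries fitted alone, the FN1 call there was lost (adjusted p = 0.073).

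SPARC, a collagen-binding matricellular protein, stood in H1975 at 20.7 and 19.8 FPKM in the controls and at 112 and 111 FPKM with ZNF263. That is a 5.49-fold rise (log2 difference 2.40 ± 0.0643, adjusted p = 1.61e-11). In PC9 its level was low, 0.863 and 0.806 FPKM against 1.30 and 1.23 FPKM (0.30, adjusted p = 0.00857). The PC9 call rests on few reads, at least 60 to 85 per library, and was lost without control replicate 2 (adjusted p = 0.0815) or without ZNF263 replicate 1 (0.0678). In HCC827 the controls had 23.7 and 21.6 FPKM and the ZNF263 libraries 20.6 and 19.5 FPKM (-0.17, adjusted p = 0.0877), which did not pass, but did after median-of-ratios scaling (-0.23, adjusted p = 0.0273) and without control replicate 2 (-0.23, adjusted p = 0.0281). The rise of SPARC in H1975 exceeded that in PC9 by 2.10 ± 0.091 (adjusted p = 2.62e-09).

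MGP and CHI3L1 went from about 1 FPKM or less to over 13 FPKM in H1975, the largest changes among the tested genes. MGP, a small inhibitor of calcification and of bone morphogenetic proteins, had 1.16 and 0.836 FPKM in the controls and 26.9 and 26.0 FPKM with ZNF263, which rest on at least 46 and up to 1573 reads (3.78 ± 0.103, adjusted p = 1.85e-11). CHI3L1, a secreted chitinase-like protein without enzyme activity, had 0.382 and 0.502 FPKM in the controls and 18.0 and 13.2 FPKM with ZNF263 (3.51 ± 0.109, adjusted p = 4.8e-11). MGP would not have been tested without the H1975 libraries with ZNF263, so its filter favoured that rise. Both genes were listed at 0 in all 4 PC9 libraries. In HCC827, MGP stayed at or below 0.296 FPKM, and CHI3L1 stood at 1.33 and 1.20 FPKM against 1.62 and 1.55 FPKM (adjusted p = 0.241).

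MATN2 was low in all lines and was called higher in each, firmly in H1975 and less so elsewhere. In H1975 it had 1.17 and 1.27 FPKM in the controls and 5.01 and 5.37 FPKM with ZNF263, a 4.26-fold rise (1.48 ± 0.0965, adjusted p = 3.14e-08). In HCC827 it had 0.260 and 0.192 against 0.626 and 0.655 FPKM (0.42, adjusted p = 0.00932). In PC9 it had 0.779 and 0.613 against 0.962 and 1.44 FPKM (0.37, adjusted p = 0.0272). No ZNF263 library overlapped the controls of its line, but the smaller calls depended on single libraries. The HCC827 call was lost without ZNF263 replicate 1 (adjusted p = 0.0521), and the PC9 call without control replicate 1 (0.0539), control replicate 2 (0.216) or ZNF263 replicate 2 (0.222). The PC9 call was also lost with the replicate block (0.0506), without the filter (0.0625), after quantile normalization (0.095) and with PC9 fitted alone (0.195).

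TNC, the matricellular protein tenascin C, was called in PC9 and H1975. In H1975 it stood at 83.2 and 81.4 FPKM in the controls and at 146 and 143 FPKM with ZNF263, a 1.76-fold rise (0.81 ± 0.061, adjusted p = 1.27e-07). In HCC827 the libraries overlapped, with 84.8 and 85.2 against 91.2 and 83.3 FPKM (adjusted p = 0.731). In PC9, 0.878 and 1.06 FPKM stood against 1.37 and 1.33 FPKM (0.26, adjusted p = 0.0164). That PC9 call did not pass without control replicate 1 (difference 0.19), ZNF263 replicate 1 (0.24) or ZNF263 replicate 2 (0.27). It was also lost after quantile normalization (adjusted p = 0.111, limma) and with PC9 fitted alone (0.105).

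Other secreted genes were lower. THBS1, thrombospondin 1, which can activate latent TGF-beta, had 145 and 146 FPKM in the H1975 controls and 82.4 and 85.7 FPKM with ZNF263, 1.73-fold lower (-0.78 ± 0.0989, adjusted p = 1.56e-05). In HCC827 it had 49.3 and 51.1 against 31.0 and 42.2 FPKM (-0.46, adjusted p = 0.00653), and this call was lost when that line was fitted alone (adjusted p = 0.11). In PC9 the ZNF263 libraries, at 28.6 and 28.6 FPKM, lay above the controls at 24.1 and 23.2 FPKM without passing (0.26, adjusted p = 0.112). The change of THBS1 in H1975 and in PC9 differed by -1.05 ± 0.14 (H1975 minus PC9, adjusted p = 4.42e-05).

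LUM, the collagen-binding proteoglycan lumican, was listed at 0 in PC9. In HCC827 it stood at 13.5 and 16.0 FPKM against 13.3 and 15.5 FPKM, with overlapping libraries (adjusted p = 0.872). In H1975 its 1.89 and 1.79 FPKM in the controls became 0.0993 and 0.164 FPKM, on at least 3 and 5 reads (-1.33 ± 0.0906, adjusted p = 4.82e-08). LUM therefore fell in the line where SPARC and MGP rose.

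FBLN1 (fibulin 1, a protein of elastic fibres and basement membranes) moved in opposite directions in HCC827 and H1975. In HCC827 it rose 1.69-fold, from 2.24 and 2.18 to 3.83 and 3.65 FPKM (0.56 ± 0.0677, adjusted p = 0.000163). In H1975 it was 3.7-fold lower, with 5.32 and 5.30 FPKM in the controls and 1.33 and 1.54 FPKM with ZNF263 (-1.38, adjusted p = 2.29e-09). In PC9 it stood at 12.4 and 12.3 against 12.8 and 12.7 FPKM (adjusted p = 0.759). The difference between the H1975 and HCC827 changes was -1.94 ± 0.096 (adjusted p = 6.81e-09).

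SPOCK1 (testican 1, a secreted proteoglycan) had the largest change of the tested genes in PC9. There it stood at 10.1 and 11.2 FPKM in the controls and at 5.21 and 5.83 FPKM with ZNF263, 1.93-fold lower (-0.84 ± 0.0922, adjusted p = 7.49e-05). In H1975 it was 1.28-fold higher, with 20.6 and 19.9 against 25.2 and 26.3 FPKM (0.34, adjusted p = 0.00622). In HCC827 the 4 libraries overlapped, at 11.2 and 14.2 against 10.9 and 11.4 FPKM (-0.16, adjusted p = 0.248). Without HCC827 control replicate 1 that difference passed too (-0.32, adjusted p = 0.0236). The changes of SPOCK1 in H1975 and PC9 differed by 1.18 ± 0.13 (adjusted p = 8.73e-06).

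The most abundant secreted gene, TGFBI (an adhesion protein induced by TGF-beta), passed in no line. It had 409 and 401 against 464 and 435 FPKM in PC9, 1038 and 957 against 1036 and 1138 FPKM in HCC827, and 932 and 934 against 912 and 902 FPKM in H1975. Its adjusted p was 0.145, 0.175 and 0.584, with differences of 0.15, 0.12 and -0.04 ± 0.0603. After quantile normalization it passed in each line (0.18, 0.19 and -0.11, adjusted p = 0.00668, 0.00337 and 0.0176). FBN2 (fibrillin 2) did not pass in any line, and in PC9 it stood between 13.6 and 15.0 FPKM.

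**Figure D2:**
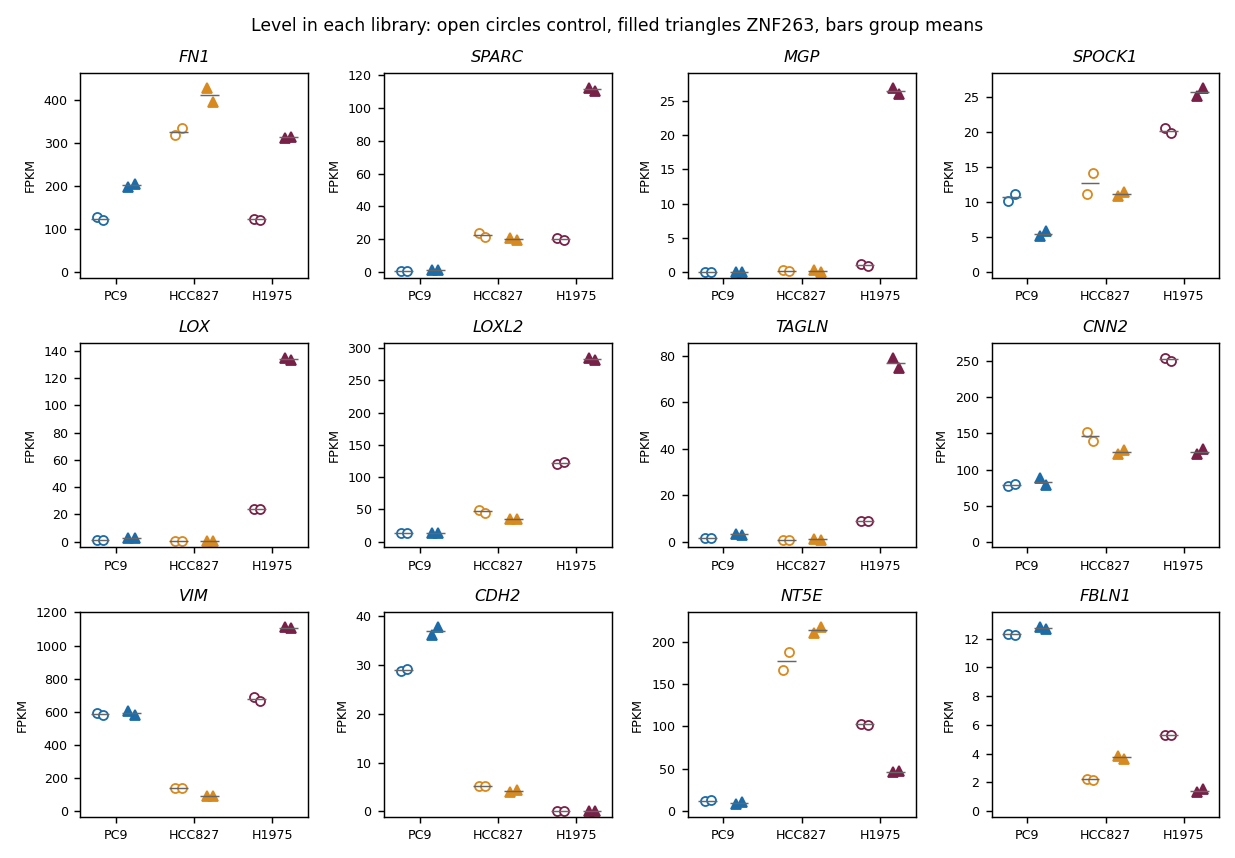
Level in FPKM (y axis, linear and including 0) of 12 genes in each of the 12 libraries, with control libraries as open circles, ZNF263 libraries as filled triangles and a bar at each group mean. Within H1975, TAGLN, MGP, SPARC and LOX are high in the libraries with ZNF263; levels of different lines come from columns that appear to have been processed separately, and VIM, CDH2, NT5E and FBLN1 move in different directions in different lines.

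The cross-linking genes were all higher in H1975 where they could be tested, and 1 of them passed in each other line. Of 6 genes 5 were tested, and all 5 were higher in H1975 (median log2 difference 0.89); without LOXL4, which was tested only because of its level in the H1975 libraries with ZNF263, 4 of 4 were, where 32.1% of all genes were. In PC9 LOX was the one that rose and none fell (median -0.049). In HCC827 LOXL2 was the one that fell and none rose (median -0.012). Either is 20% of the 5 tested genes. Of all genes 11.3% were called in PC9 and 19.5% in HCC827, so the HCC827 share is near that of all genes.

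LOX, the secreted lysyl oxidase that starts collagen and elastin cross-links, stood in H1975 at 24.2 and 23.8 FPKM in the controls and at 135 and 133 FPKM with ZNF263. That is a 5.59-fold rise (2.44 ± 0.0767, adjusted p = 5.05e-11). In PC9 it rose 1.85-fold at a low level, from 1.44 and 1.56 to 2.55 and 2.98 FPKM (0.59, adjusted p = 0.000303). In HCC827 it stayed between 0.366 and 0.482 FPKM in all 4 libraries (adjusted p = 0.94). The rise of LOX in H1975 exceeded that in PC9 by 1.85 ± 0.11 (adjusted p = 3.23e-08), and with PC9 fitted alone the PC9 call was lost (adjusted p = 0.0543).

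LOXL2, a lysyl oxidase family member, went up in one line and down in another. In H1975 it stood at 121 and 123 FPKM in the controls and at 285 and 282 FPKM with ZNF263, a 2.33-fold rise (1.21 ± 0.053, adjusted p = 7.91e-10). In HCC827 it was 1.34-fold lower, with 49.8 and 45.2 against 35.0 and 35.7 FPKM (-0.41, adjusted p = 0.000248). In PC9 it stood at 13.4 and 13.5 against 12.8 and 13.1 FPKM (adjusted p = 0.644). The groups did not overlap in either changed line, and the changes in H1975 and HCC827 differed by 1.63 ± 0.075 (adjusted p = 4.16e-09). LOXL4 stood in H1975 at 0.483 and 0.684 FPKM in the controls and at 1.17 and 1.13 FPKM with ZNF263, and did not exceed 0.0564 FPKM in the other lines.

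PLOD1 and PLOD2 encode lysyl hydroxylases, which modify collagen inside the cell before cross-linking. PLOD1 in H1975 had 62.2 and 59.1 FPKM in the controls and 115 and 112 FPKM with ZNF263, a 1.87-fold rise (0.89 ± 0.0518, adjusted p = 1.07e-08). It stood at 31.1 and 31.7 against 29 and 28.6 FPKM in PC9 (adjusted p = 0.173) and at 32.3 and 30.2 against 31.4 and 30.9 FPKM in HCC827 (adjusted p = 0.969). PLOD2 in H1975 had 129.9 and 129 FPKM in the controls and 191 and 188 FPKM with ZNF263, a 1.46-fold rise (0.55 ± 0.0843, adjusted p = 8.68e-05). In PC9 PLOD2 stood at 69.6 and 69.5 against 63.6 and 66.2 FPKM (adjusted p = 0.529). Its HCC827 libraries overlapped, with 30.3 and 38.5 against 29 and 31.6 FPKM (adjusted p = 0.186), although without control replicate 1 they passed (-0.34, adjusted p = 0.0032).

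The contractile genes went in both directions in H1975. Of 10 genes 9 were tested. In H1975, 5 were higher and 3 lower (median 0.26), where 32.1% of all genes were higher and 32.1% lower, so the share that was lower is near that of all genes; 1 of the 5, TPM4, turned to lower when compared with its chromosomal neighbours. In PC9 TAGLN was the one higher and none was lower (median 0.084), or 11.1% called, near the 11.3% of all genes. In HCC827 TPM2 and MYL9 were higher and CNN2 lower (median 0.016, which was -0.038 after median-of-ratios scaling). That is 33.3% called, where 19.5% of all genes were.

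TAGLN, the actin-binding protein transgelin of smooth muscle, had the largest change of the contractile genes. In H1975 it stood at 8.98 and 8.92 FPKM in the controls and at 79.2 and 74.9 FPKM with ZNF263, an 8.61-fold rise (2.97 ± 0.0867, adjusted p = 3.03e-11). In PC9 it rose 1.82-fold, from 1.73 and 1.72 to 3.46 and 2.83 FPKM (0.60, adjusted p = 0.000655), a call lost in the PC9 libraries alone (adjusted p = 0.0637). In HCC827 it stood at 0.832 and 0.791 against 1.21 and 0.943 FPKM (adjusted p = 0.139). TAGLN overlaps PCSK7 on the other strand, and PCSK7 in H1975 went from 10.3 to 16.1 FPKM (0.59, adjusted p = 5.37e-05). No source used here says whether reads were counted by strand.

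The calponin CNN2, an actin-binding protein found outside muscle too, went the other way in H1975. It had 255 and 250.2 FPKM in the controls and 122 and 128 FPKM with ZNF263, 2.03-fold lower (-1.01 ± 0.0618, adjusted p = 1.7e-08). In HCC827 it had 152 and 140.2 against 121 and 127 FPKM (-0.24, adjusted p = 0.0186), which was lost without control replicate 1 (adjusted p = 0.099) or ZNF263 replicate 1 (0.133). In PC9 the libraries overlapped, between 76.9 and 88.0 FPKM. CNN3, another calponin, was 1.2-fold higher in H1975, with 24.7 and 27.2 against 31.1 and 31.2 FPKM (0.26 ± 0.0641, adjusted p = 0.00339), and this was lost without control replicate 1 (adjusted p = 0.051). CNN3 ranged from 31.4 to 37.0 FPKM in PC9 and from 38.6 to 45.1 FPKM in HCC827.

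ACTA2, smooth muscle alpha-actin and a usual marker of myofibroblasts, was low in all lines and fell in H1975. It had 4.09 and 3.86 FPKM in the controls and 3.19 and 2.62 FPKM with ZNF263 (-0.35 ± 0.1, adjusted p = 0.00778), and without ZNF263 replicate 2 the call was lost (-0.25, adjusted p = 0.0916). In PC9 the ZNF263 libraries were above the controls, 5.26 and 4.72 against 3.50 and 4.19 FPKM (0.31, adjusted p = 0.0687). In HCC827 the 4 libraries lay between 2.54 and 2.95 FPKM. ACTA2 overlaps FAS on the other strand, and FAS in H1975 went from 3.85 to 1.06 FPKM (-1.23, adjusted p = 1.46e-06). Reads of ACTA2 can also be shared with other near-identical actin genes, so its values are uncertain.

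MYL9, the regulatory light chain of non-muscle and smooth muscle myosin, was listed at 0 in PC9. In H1975 it rose 1.36-fold, from 42.0 and 39.1 to 55.4 and 55.0 FPKM (0.44 ± 0.0644, adjusted p = 5.87e-05). In HCC827 it rose 1.21-fold, from 12.9 and 12.4 to 14.8 and 15.7 FPKM (0.25, adjusted p = 0.0162). The HCC827 call was lost after median-of-ratios scaling (adjusted p = 0.067) and without ZNF263 replicate 2 (adjusted p = 0.107).

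Tropomyosins, which wrap actin filaments, changed by small amounts. TPM4 in H1975 had 193 and 192 FPKM in the controls and 237 and 239 FPKM with ZNF263, 1.24-fold higher (0.30 ± 0.0759, adjusted p = 0.00336). Its chromosomal neighbours, though, rose by a median of 0.64. Less that median TPM4 was lower (-0.33, adjusted p = 0.00228, with the standard error of TPM4 alone). TPM2 in H1975 had 4.93 and 5.16 against 6.05 and 6.70 FPKM (0.28 ± 0.0937, adjusted p = 0.0173), and this was lost without control replicate 1 (0.0853) or ZNF263 replicate 2 (0.123). TPM2 in HCC827 had 5.85 and 4.5 against 6.55 and 7.36 FPKM (0.37, adjusted p = 0.0154), lost without control replicate 2 (0.0783) or ZNF263 replicate 2 (0.111). The TPM2 changes in both lines thus depended on single libraries. TPM1 in H1975 had 55.4 and 58.0 against 47.7 and 50.3 FPKM (-0.21 ± 0.072, adjusted p = 0.0223), lost without control replicate 2 (0.125) or ZNF263 replicate 1 (0.134). In PC9 TPM2 stood between 75.5 and 81.3 FPKM, TPM1 between 65.2 and 71.2 FPKM and TPM4 between 114 and 126 FPKM. CALD1, caldesmon, passed in no line, with 26.4 to 31.6 FPKM in HCC827, 34.6 to 38.0 FPKM in PC9 and 66.1 to 73.1 FPKM in H1975.

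Serum response factor reads the CArG box, TEAD factors read CATTCC, and GGGAGGA is the core of the motif known for ZNF263. These were searched on both strands, from 250 bases before to 50 bases after the start of each RefSeq transcript (GRCh38.p14). In all, 28 of the 39 genes matched by symbol, with 39 promoters, and no 2 motifs overlapped in them. The genes without an entry are SPOCK1, LUM, MGP, DCN, MYL9, LOXL2, MATN2, TAGLN, CDH11, THY1 and FAP. A CArG box was in 4 of the 39 promoters (10.3%, where 1.3% of 35116 promoters held it), GGGAGGA in 10 (25.6%, where 18.1% did) and CATTCC in 8 (20.5%, where 14.0% did). The boxes of PLOD1, CNN2 and TPM4 are shown because these genes differed in direction in H1975 with the same kind of box, and LOX because it rose most of the genes shown; capitals mark the motif, and positions count from the transcript start.
PLOD1, CArG box at -141 to -132, chr1:11934546-11934615, plus strand: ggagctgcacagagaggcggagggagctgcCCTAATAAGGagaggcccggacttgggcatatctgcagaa
CNN2, CArG box at -89 to -80, chr19:1026489-1026558, plus strand: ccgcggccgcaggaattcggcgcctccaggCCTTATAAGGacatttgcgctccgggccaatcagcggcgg
TPM4, CArG box at -173 to -164, chr19:16067335-16067404, plus strand: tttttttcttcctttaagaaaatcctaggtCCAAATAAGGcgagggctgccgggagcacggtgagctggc
LOX, GGGAGGA at -174 to -168, chr5:122078397-122078463, minus strand: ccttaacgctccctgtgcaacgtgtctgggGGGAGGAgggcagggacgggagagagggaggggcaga
Among these genes PLOD1 rose and CNN2 fell in H1975, and the direction of TPM4 depended on its neighbours. The fourth CArG box was in a CHI3L1 promoter, at -75 to -66. GGGAGGA was not limited to genes that rose as LOX did. It was also in promoters of FN1, CNN3 and TPM4, called higher in H1975, and of FBLN1 and ACTA2, called lower there. The rest were promoters of CALD1, which passed in no line, and of THBS2 and BGN, which were not tested. A match to a motif is a description of these letters and not a measured site.

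The filament, cadherin and surface genes went in different directions in different lines, and 4 of the 6 were tested. VIM is the mesenchymal intermediate filament vimentin. In H1975 it stood at 691 and 665 FPKM in the controls and at 1112 and 1105 FPKM with ZNF263, a 1.63-fold rise (0.71 ± 0.0464, adjusted p = 3.33e-08). In HCC827 it was 1.56-fold lower, with 139.7 and 142 against 90.7 and 89.9 FPKM (-0.63, adjusted p = 4.83e-06). In PC9 the libraries overlapped, with 594 and 579 against 607 and 583 FPKM (adjusted p = 0.852). The changes of VIM in H1975 and HCC827 differed by 1.34 ± 0.066 (adjusted p = 6.35e-09).

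CDH2, N-cadherin, which takes the place of E-cadherin in many mesenchymal cells, was called in opposite directions in PC9 and HCC827. In PC9 it rose 1.28-fold, from 28.8 and 29.2 to 36.2 and 37.8 FPKM (0.34 ± 0.0662, adjusted p = 0.00499). In HCC827 it fell, from 5.24 and 5.14 to 4.02 and 4.34 FPKM (-0.26, adjusted p = 0.0168). The 2 changes differed by -0.60 ± 0.094 (HCC827 minus PC9, adjusted p = 0.00172). The PC9 call was lost without ZNF263 replicate 2 (adjusted p = 0.0517), and the HCC827 call without control replicate 1 (0.0531) or ZNF263 replicate 1 (0.131). In H1975 CDH2 did not exceed 0.0836 FPKM, or 13 recovered reads. There it passed as higher with a pseudocount of 0.1 (0.75, adjusted p = 5.36e-05) and with that line fitted alone (0.098, adjusted p = 0.036), while with that pseudocount the calls in PC9 (adjusted p = 0.0517) and HCC827 (0.0644) were lost. CDH11, a cadherin of osteoblasts and fibroblasts, had 0.577 and 0.329 FPKM in the H1975 controls and 4.88 and 4.54 FPKM with ZNF263; it was tested only because of the latter, and it did not exceed 0.874 FPKM in the other lines.

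NT5E, the surface enzyme CD73 that makes adenosine, was the third gene called in every line, with the direction not shared. In H1975 it had 103 and 102 FPKM in the controls and 46.2 and 46.8 FPKM with ZNF263, 2.2-fold lower (-1.12 ± 0.0821, adjusted p = 9.39e-08). In HCC827 it had 167 and 188 against 210.5 and 217 FPKM (0.27, adjusted p = 0.0358). In PC9 it had 11.5 and 13.4 against 9.06 and 10.7 FPKM (-0.31, adjusted p = 0.0298). The smaller changes were near the spread between libraries: the HCC827 call was lost without control replicate 1 (adjusted p = 0.206), ZNF263 replicate 1 (0.114) or ZNF263 replicate 2 (0.146), and after median-of-ratios scaling (0.109). The PC9 call was lost without control replicate 2 (0.287) or ZNF263 replicate 1 (0.262). The changes in H1975 and HCC827 differed by -1.39 ± 0.12 (adjusted p = 6.85e-07).

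Across lines, 16 of the 30 tested genes were called in at least 2 lines, where 20% of all genes were, and 3 were called in all 3 lines (as were 366 of 12218 genes, or 3%) and 3 in none. The last are TGFBI, CALD1 and FBN2. Calls in opposite directions in different lines were made for 6 of the 30 genes, where 8.46% of all genes had such calls: VIM, CDH2, NT5E, FBLN1, LOXL2 and SPOCK1. Genes called in the same direction in PC9 and H1975 but not in HCC827 were SPARC, TNC, LOX and TAGLN. THBS1 and CNN2 fell in both HCC827 and H1975, and TPM2 and MYL9 rose in both.

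Other genes of the same pathways are given from lists that hold none of the 39 genes. Among other secreted matrix genes, 21 of 36 were tested, and in H1975 11 were higher and 3 lower (median 0.32), or 66.7% called, near the 64.2% of all genes. FSTL1, a follistatin-like glycoprotein, had a mean of 7.33 FPKM in the controls and 38.6 FPKM with ZNF263 there (2.25). FBLN2 (1.78) and LTBP1 (1.61) followed. ECM1, among the 11, was tested only because of its level in the H1975 libraries with ZNF263. In HCC827 8 were higher and none lower (median 0.18), or 38.1% called, where 13% of all genes were higher and 6.44% lower. EFEMP1, NID1 and FBLN2 led there with 0.56, 0.53 and 0.48. In PC9 5 were higher and 1 lower (median 0.10), or 28.6% called, where 7.21% of all genes were higher and 4.12% lower. FBLN5 led there with 0.75, but it was tested only because of its level in the PC9 libraries with ZNF263. EFEMP1, a fibulin, rose in all lines (0.47, 0.56 and 0.77 in PC9, HCC827 and H1975).

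Other genes that modify or fold collagen followed the cross-linking genes in H1975: 12 of 16 were higher and 2 lower (median 0.52), or 87.5% called against 64.2% of all genes. SERPINH1, the collagen chaperone, went from 95.7 to 336 FPKM (1.80), and COLGALT1, a collagen galactosyltransferase, from 61.5 to 203 FPKM (1.71). In PC9, 2 were higher and 3 lower, or 31.2% called where 11.3% of all genes were. In HCC827, 1 was higher and 2 lower, or 18.8% called, near the 19.5% of all genes.

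Other contractile genes went mostly down in H1975. There, 7 of 25 were higher and 15 lower (median -0.18), where 32.1% of all genes were higher and 32.1% lower, with FHL2 from 15.1 to 2.54 FPKM (-2.19), CSRP2 at -1.72 and FHL1 higher by 1.80. In HCC827 none was higher and 6 were lower, with FLNC (-0.54), ZYX (-0.39) and PDLIM7 (-0.25) the largest changes. That is 24% called, where 19.5% of all genes were called and 6.44% were lower. In PC9, 3 of 27 were higher and none lower, or 11.1% called, near the 11.3% of all genes. Among other mesenchymal surface and signalling genes, 6 of 8 were higher and 1 lower in H1975 (87.5% called against 64.2%), where S100A4 went from 2.87 to 42.1 FPKM (3.48). PDGFRB, among the 6, was tested only because of its level in the H1975 libraries with ZNF263.

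**Figure D3:**
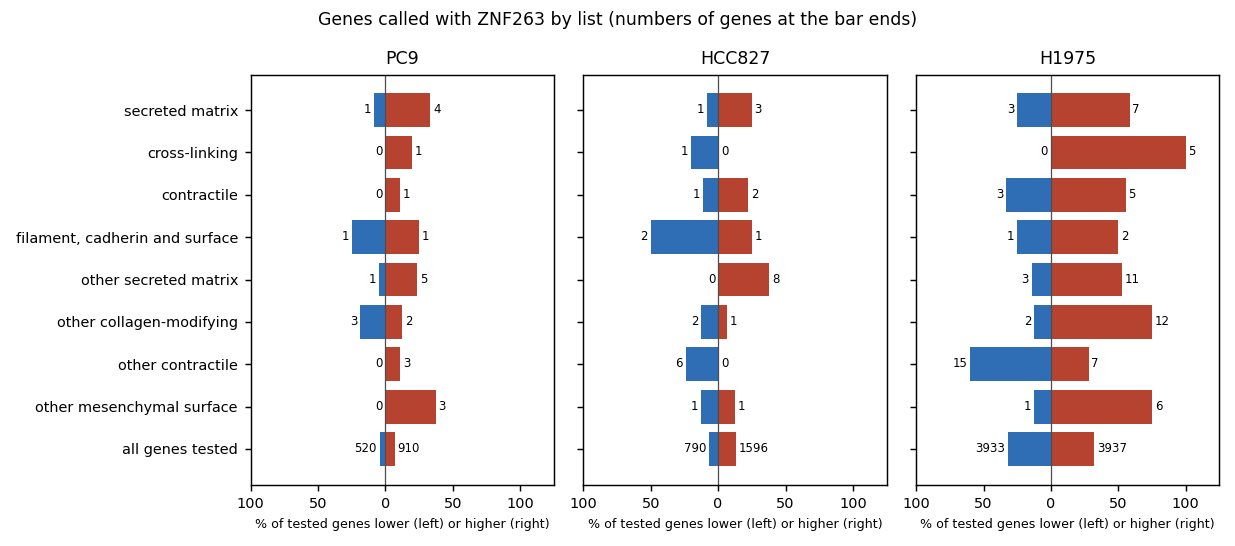
Percentage of the tested genes of each list (y axis) that were called higher (right of 0) or lower (left of 0) with ZNF263 in each line, with the number of genes at each bar end and all tested genes in the bottom row. In H1975 the cross-linking genes are all on the right, while the other contractile genes lie mostly on the left, 15 lower against 7 higher.

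Comparison with chromosomal neighbours, the median of 20 tested genes on each side, moved most H1975 values little. Each gene kept its own standard error, so the error of the neighbours' median is not in the p-values of this comparison. It kept 22 of the 26 calls there, reversed that of TPM4, and ended those of ACTA2 (-0.15, adjusted p = 0.209), TPM1 (-0.12, adjusted p = 0.159) and CNN3 (0.12, adjusted p = 0.119). FBLN1 lay among neighbours that rose by a median of 0.58, so that its difference less theirs was -1.96. MATN2 lay among neighbours with a median of -0.54, and its difference less theirs was 2.02. For VIM the neighbours' median was 0.27, and 0.43 of its rise was beyond it (adjusted p = 4.3e-06).

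**Figure D4:**
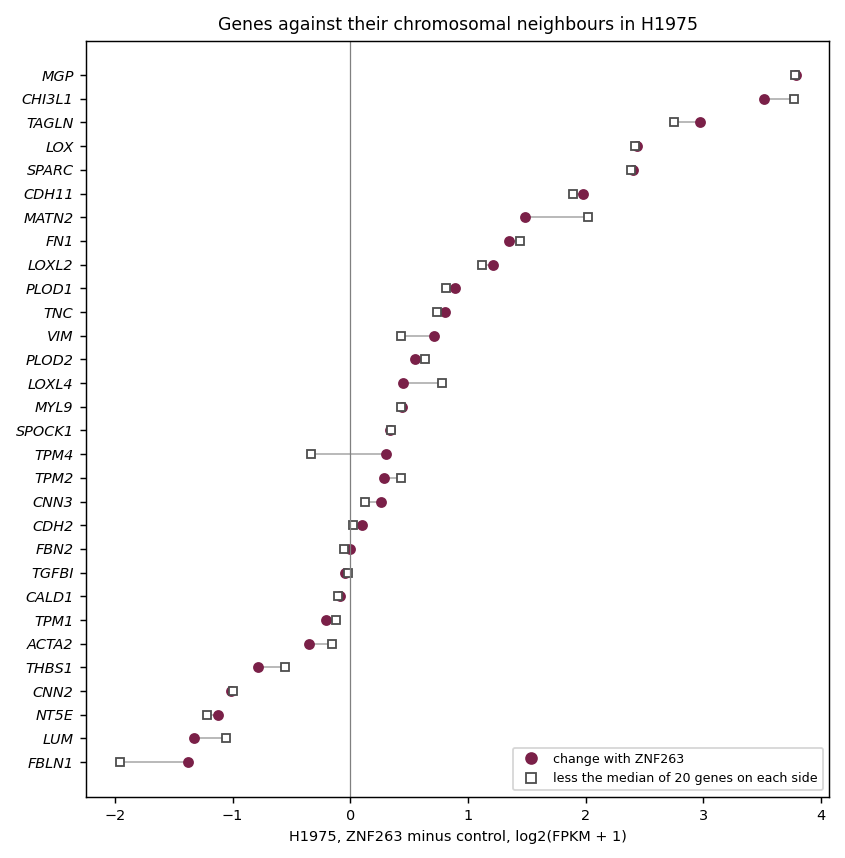
Difference between ZNF263 and control in H1975 on the log2(FPKM + 1) scale (x axis) for each tested gene with a position (y axis), as measured (filled circles) and less the median of 20 genes on each side (open squares). Most pairs lie close together, while TPM4 crosses from 0.30 to -0.33, and FBLN1 and MATN2 move farther from 0.

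Markers of other states and cell types moved in H1975 as well. Of 12 epithelial markers 11 were lower with ZNF263 there, where 32.1% of all genes were, and 1 (KRT8) was higher. The summed level of the 12 was 4324 to 4325 FPKM in the controls and 1920.0 to 1936 FPKM with ZNF263. EPCAM went from 225 to 31.7 FPKM and CDH1 (E-cadherin) from 66.6 to 13.5 FPKM. The sum of 13 fibroblast markers was 40.8 to 44.4 FPKM in the controls and 246 to 249.9 FPKM with ZNF263, carried by COL1A2, from 14.6 to 166 FPKM, and COL5A1, from 9.54 to 69.3 FPKM. COL1A1 went the other way, from 15.9 to 9.29 FPKM (-0.71, adjusted p = 2.04e-05), as did LUM. Of the 7 that were tested, 4 were higher and 2 lower in H1975, where 32.1% of all genes were higher and 32.1% lower. The other 2 that rose were PDGFRB, from 0.119 to 1.62 FPKM, and COL3A1, from 0.140 to 0.308 FPKM. PDGFRB was tested only because of its level in the H1975 libraries with ZNF263, so its filter favoured that rise. In each of the 4 H1975 libraries 4 of the 13 reached 1 FPKM, but LUM did so only in the controls and PDGFRB only with ZNF263. DCN did not exceed 0.00891 FPKM there. Summed smooth muscle markers reached 1.74 FPKM at most and summed endothelial markers 0.856 FPKM at most. Of 8 immune markers 3 were tested, and in H1975 CD14 was higher (3.09 to 20.2 FPKM, adjusted p = 3.15e-07) while CSF1R and CD68 were lower. Of 6 lung lineage markers 4 were tested. In HCC827 3 were higher, where 13% of all genes were, among them SFTPB from 10.6 to 33.5 FPKM. In PC9 2 were higher, where 7.21% of all genes were, and NKX2-1 among them went only from 0.0596 to 0.353 FPKM. In H1975 1 was lower, or 25%, where 32.1% of all genes were. In PC9 4 of the 12 epithelial markers reached 1 FPKM in each library, and in HCC827 11 did; their sums were 2786 to 2810.0 against 3958 to 4192 FPKM in PC9 and 3817 to 4292 against 3432 to 3671 FPKM in HCC827. In HCC827 KRT7 and KRT19 were lower and CLDN4, GRHL2 and OVOL1 higher, or 41.7% called, where 19.5% of all genes were. In PC9 CDH1 (8.01 to 16.9 FPKM, 0.99, adjusted p = 1.52e-06, limma), KRT8 and KRT18 were higher and none was lower. That is 25% called, where 11.3% of all genes were. In such bulk libraries a change in the number of cells of a kind and a change in RNA per cell cannot be told apart, and the part of these markers in the results above was not tested.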

How the data were processed

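The authors deposited gene expression as FPKM values in a table with a column for each library. The build was GRCh38 p13, per the submitters' processing notes. The aligner, the counter, the annotation and the use of strand: not given in the sources used here. Per the labels' protocols, cells grew in DMEM, TRIZOL was used for RNA, and a SMARTER mRNA-seq kit for the libraries. The titles add OR to the line names, which the labels do not explain. Groups follow the cell line and genotype labels. All genes had values in PC9, whereas 3383 genes had none in HCC827 and 3339 none in H1975, so the columns of different lines appear to have been processed separately. Tests between lines compare differences within a line, and levels are not ranked across lines. Entries whose names had become dates (27) were left out.

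Genes that reached 1 FPKM in 2 or more of 12 libraries were tested on log2(FPKM + 1) with limma 3.58.1 (R 4.3.3), with 1 mean per group, a spread shared by all 6 groups, a trended prior, 2-sided tests and Benjamini-Hochberg adjustment over all tested genes of a contrast; genes were called at an adjusted p under 0.05. An F test asked whether the 3 differences were equal. The script was tested on simulated data. Total depth is not given. Whole reads were recovered per gene as the smallest whole numbers that fit, for 99.4%, 99.5% and 98.8% of 501, 579 and 578 sampled genes in PC9, HCC827 and H1975 (4.58%, 4.33% and 2.46% after shuffling), so read numbers are lower limits. They were used to describe depth, and not in a test.

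All values in every library were given for genes called in 2 or more lines, called with a change of at least 1, or at 20 FPKM or more in a group (27 genes); of other lists the 3 called genes of largest change per line were candidates for naming. The members and lists were chosen with earlier results of these data known. Alternatives were a pseudocount of 0.1, no filter, a filter within the line, median-of-ratios scaling, quantile normalization, only the 4 libraries of a line, each library left out, a replicate block, and subtraction of the median of 20 neighbouring genes on each side, by RefSeq GRCh38.p14 order.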

Additional observations from a re-analysis of the deposited data

Results flagged for a closer look

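The change with ZNF263 differed between the 3 lines for 26 of the 30 tested genes (limma F test of equal differences, adjusted over all genes; 60.3% of all genes passed). Among the secreted matrix genes the adjusted p was 8.2e-10 for SPARC and for MGP, 2.73e-09 for CHI3L1, 1.46e-08 for FBLN1, 5.62e-07 for FN1, 2.26e-06 for LUM, 2.13e-05 for MATN2, 2.16e-05 for TNC, 2.45e-05 for SPOCK1 and 0.000103 for THBS1. MGP, CHI3L1 and LUM, and below MYL9, were listed at 0 in PC9, so no change could be measured there. LOXL4 and CDH11, also below, were tested only through the H1975 libraries with ZNF263, and MGP would not have been tested without them. That filter favoured a difference between lines.

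Among the cross-linking genes it was 5.2e-09 for LOX, 7.03e-09 for LOXL2, 2.49e-07 for PLOD1, 0.000343 for PLOD2 and 0.00166 for LOXL4. For the contractile genes it was 3.87e-09 for TAGLN, 1.02e-06 for CNN2, 0.00373 for MYL9, 0.00468 for ACTA2, 0.00947 for CNN3, 0.0109 for TPM4 and 0.0414 for TPM2. The MYL9 changes in H1975 and HCC827 differed by 0.18 ± 0.091, which did not pass (adjusted p = 0.105). TPM2 did not pass in several alternatives, with an adjusted p up to 0.163.

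For VIM the adjusted p was 1.83e-08, for CDH11 3e-08, for NT5E 1.96e-06 and for CDH2 0.000433. TGFBI (0.13), CALD1 (0.558), TPM1 (0.0553) and FBN2 (0.454) did not pass. In alternatives TPM1 passed with the replicate block (0.0278) and without HCC827 control replicate 2 (0.0477), ZNF263 replicate 1 (0.00563) or ZNF263 replicate 2 (0.0165). TGFBI passed after quantile normalization (0.000337) and without HCC827 control replicate 1 (0.0394), and CALD1 without HCC827 control replicate 2 (0.032).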

How the results depend on the processing

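FN1 and SPOCK1 in PC9, FBLN1, LOXL2 and VIM in HCC827 and 21 of the 26 calls in H1975 kept their direction and passed under every alternative run. With only the 4 libraries of a line, 3 genes were higher and 1 lower in PC9 and 2 were higher and 2 lower in HCC827; calls over all genes then numbered 407 in PC9, where 1430 were called with all libraries, and 634 in HCC827, where 2386 were. Without the filter and after quantile normalization, 1 gene was lower in PC9. With 1 library left out, the lone sample of a group was assumed to vary like the other groups. The counts then ranged from 4 to 5 higher and 1 to 2 lower in PC9, from 3 to 5 higher and 3 to 6 lower in HCC827, from 17 to 19 higher and 6 to 7 lower in H1975, and from 25 to 28 for the test between lines. With the filter applied within a line, MATN2 could not be tested in PC9 or HCC827. Less the neighbours' median, TPM4 in H1975 reversed to -0.33; its neighbours' median was 0.64. For the other lost calls the cause was not tested. Genes under 1 FPKM in both groups of a line rest on few reads, which limits what can be seen there.

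Same-numbered libraries shared little deviation from their group means: the correlation was 0.037 in PC9, 0.089 in HCC827 and -0.044 in H1975. This cannot show whether the libraries were made in pairs. With the replicate block there were 6 higher and 2 lower in PC9, 6 and 5 in HCC827, 19 and 7 in H1975, and 26 passed the test between lines. The block ended the MATN2 call in PC9 (adjusted p = 0.0506, limma), and in the test between lines TPM2 no longer passed (0.0563) while TPM1 did (0.0278).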
